A study of Mus musculus with 3 samples.

Results

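The genes described here encode mouse translation initiation factors. They were taken as every protein-coding autosomal gene whose GENCODE symbol starts with Eif1, Eif2s, Eif2b, Eif3, Eif4, Eif5b or Eif6, with the Eif2ak kinases left out. The rule uses names only and no measured value. It gave 43 genes of 50600 counted features and of 20620 protein-coding autosomal genes. They were measured by RNA-seq in primary cells of mouse strain C57BL/6NJ labelled as T-helper 1 (Th1) cells, the CD4 T cell subset known for interferon gamma. The series held 1 group of 3 libraries, biological replicates 1, 2 and 3 from separate biosamples with the same donor identifier. No genotype change or treatment is named, age and developmental stage are given as unknown, and the header of each count table carries a time of 0 hours. With 1 group no conditions could be compared, so values are compared between genes within a library and between the 3 libraries, and p-values measure only the spread between these libraries.

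Translation of most messenger RNAs begins when the small ribosomal subunit, carrying the initiator tRNA, is brought to the capped 5′ end and scans to a start codon. The eIF4 factors bind the cap and unwind the leader, eIF3 is the large scaffold on the small subunit, eIF1 and eIF1A govern start codon choice, and eIF2 delivers the initiator tRNA as a GTP complex that eIF2B recharges. The eIF4E-binding proteins hold the cap-binding protein inactive until mTOR phosphorylates them, and eIF5B joins the large subunit. T cells leaving rest are known for a steep rise in protein synthesis, and many of these factors are studied there as controls on it.

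Counts assigned to genes summed to 3647366 in replicate 1, 4305077 in replicate 2 and 2510319 in replicate 3. Genes whose exons overlap an exon of the other strand held 63.1%, 53.8% and 76.5% of these counts. Replicate 3 thus stood apart from the others in this share as well as in its total of assigned counts. The counts were made with a strand setting, and counts of such an overlap gene may hold fragments of the other strand's locus. That was not tested. Genes without such overlap are not free of this limit if the library's orientation was the reverse of the setting, which the sources used here do not settle. The naive T cell marker Tcf7 had 2898, 4967 and 1197 counts and Ccr7 had 690, 1296 and 263, and the 6 T cell markers summed to 764 to 2990 TPM over the libraries. The Th1 markers Tbx21 and Ifng each had 1, 3 and 0 counts and Cxcr3 had 0 in every library, so these 3 defining markers of the labelled subset were at or near 0. Of the other 2 genes of the Th1 list, Il18r1 had 308, 412 and 54 counts and Stat4 had 122, 158 and 40, and the list summed to 14.4 to 66.3 TPM. B, myeloid and NK lists summed to 33.5 to 49.6, 68.0 to 95.9 and 0 to 0.345 TPM, with Ms4a1 and Klrb1c at 0, and both erythroid genes were at 0. Most of the B sum was Cd79a, with 91, 138 and 108 counts, and most of the myeloid sum was the overlap gene Csf1r, with 744, 638 and 699. The part of other cell types in the members' levels was not tested.

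Of the 43 initiation factor genes, 38 (88.4%) reached 1 TPM in all 3 libraries, against 42.6% of protein-coding autosomal genes. TPM is counts per base of summed exon length, scaled to 1 common sum in every library, and it allows levels of different genes to be set side by side. The median of the members' mean TPM was 37.5, against 0.753 over protein-coding autosomal genes and 13.7 over those that reached 1 TPM in all 3 libraries. The genes that did not reach it were Eif4e1b, Eif3j2, Eif4ebp1, Eif4ebp3 and Eif2b3, and the same 5 failed the filter on low counts. Together the members took 0.502%, 0.633% and 0.332% of the counts of replicates 1, 2 and 3, and their TPM summed to 2511, 3735 and 1393. The median member stood at 35.5, 62.8 and 18.9 TPM, highest in replicate 2 and lowest in replicate 3.

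**Figure D1:**
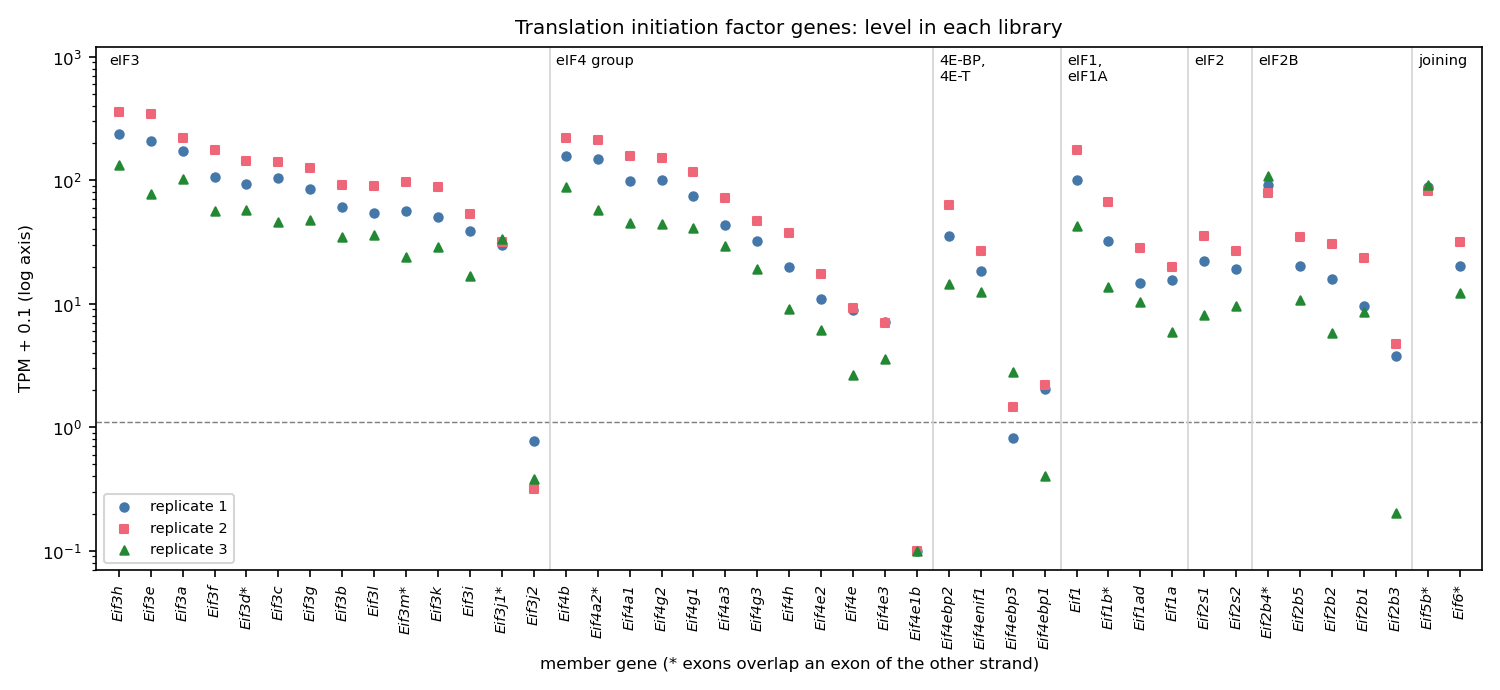
The level of each of the 43 initiation factor genes (TPM + 0.1, log axis) is plotted for the 3 libraries, 1 symbol per library, grouped by complex and ordered by mean. The dashed line marks 1 TPM; 38 genes lie above it in every library, and in most genes the replicate 3 symbol is the lowest.

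The 13 eIF3 genes other than Eif3j2 were all above 1 TPM in every library, and 5 of the 10 most abundant members were eIF3 genes. Over the 14 eIF3 genes the median of the mean TPM was 74.1. Eif3h, a subunit of the complex's MPN and PCI domain core, was the highest member, at chromosome 15, 51786558 to 51865481 on the minus strand. It had 239, 358 and 134 TPM in replicates 1, 2 and 3, a mean of 244 ± 113 (SD, n = 3). Eif3e, a PCI domain subunit (chromosome 15, 43250040 to 43282736, minus strand), had 209.6, 346 and 77.7 TPM, a mean of 211 ± 134. Eif3a, the largest scaffold subunit (chromosome 19, 60761116 to 60790693, minus strand), had 173, 219.5 and 102 TPM, a mean of 165 ± 59.1. In each of these genes replicate 2 was highest and replicate 3 lowest.

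Eif3f, an MPN domain subunit (chromosome 7, 108934417 to 108942951, plus strand), had 107, 176 and 56.5 TPM, a mean of 113 ± 60.1. Eif3d, the subunit known for cap binding on selected messages (chromosome 15, 77958998 to 77970824, minus strand), had 92.9, 143 and 57.8 TPM, a mean of 98.1 ± 43.1, and is an overlap gene. The other well-expressed subunits ranged from Eif3c at 97.1 ± 48.3 TPM to Eif3j1 at 31.6 ± 1.70, with Eif3g, Eif3b, Eif3l, Eif3m, Eif3k and Eif3i between them. As shares of the complex's summed TPM, Eif3h took 18.6 ± 0.54%, Eif3e 15.0 ± 3.37% and Eif3a 13.1 ± 1.77% (SD, n = 3). The share of Eif3h was 18.3%, 18.3% and 19.3% in replicates 1, 2 and 3, while that of Eif3e was 16.1%, 17.7% and 11.2%. The subunits, which are assembled into 1 complex, thus differed in transcript level even with Eif3j2 aside. Without overlap genes they ran from 244 TPM in Eif3h to 36.1 in Eif3i, and the overlap gene Eif3j1 stood at 31.6.

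Eif3j1 and Eif3j2 encode the loosely bound subunit eIF3j and are close copies, so reads that match both may have been lost from each. Eif3j1 had 328, 360 and 290 counts and Eif3j2 had 3, 1 and 1. Per base of exon, the summed counts of Eif3j1 were 79.8 times those of Eif3j2 (exact 95% Clopper-Pearson interval 34.1 to 246, counting error only). Eif3j2 stood at 0.670, 0.215 and 0.281 TPM.

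The 12 genes of the eIF4 group ran from 154 ± 66.3 TPM in Eif4b to 0 in Eif4e1b, with a median mean TPM of 40.2. The RNA helicase eIF4A has 3 genes here. Eif4a1 (chromosome 11, 69666936 to 69672423, minus strand) had 98.7, 157 and 45.4 TPM, a mean of 100.2 ± 55.6. Eif4a2 (chromosome 16, 23107444 to 23114136, plus strand) had 148, 212 and 56.9 TPM, a mean of 139 ± 77.8, and its last exon overlaps 194 bases of Rfc4, which had 16, 22 and 6 counts. Eif4a3, the exon junction complex helicase, had 43.6, 71.4 and 29.0 TPM. The order of the 3 genes was the same in every library: Eif4a2 took 47.5 ± 3.85%, Eif4a1 34.7 ± 0.81% and Eif4a3 17.8 ± 3.78% of the family's summed TPM. The within-library log2 ratio of Eif4a1 to Eif4a2 was −0.45 ± 0.13, and that of Eif4a1 to Eif4a3 was 0.98 ± 0.30 (SD, n = 3).

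The scaffold eIF4G also kept 1 order in all 3 libraries. Eif4g2, which encodes DAP5 and lacks the cap-binding protein's docking site (chromosome 7, 111067750 to 111083030, minus strand), had 101, 152 and 44.2 TPM, a mean of 98.9 ± 53.7. Eif4g1, the main scaffold, had 74.4, 116 and 40.8 TPM. Eif4g3 had 32.1, 46.5 and 18.9 TPM. Their shares were 46.5 ± 3.46%, 37.3 ± 1.77% and 16.1 ± 1.78%. The log2 ratio of Eif4g1 to Eif4g3 was 1.21 ± 0.10, the pair with the smallest spread between libraries. Eif4g2 exceeded Eif4g1 by a log2 ratio of 0.31 ± 0.18, which was 0.44, 0.39 and 0.11 in replicates 1, 2 and 3.

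The cap-binding proteins were low. Eif4e, the classical cap-binding factor, had 8.75, 9.09 and 2.56 TPM, a mean of 6.80 ± 3.68. Eif4e2, the homologue known for repressing messages, had 10.8, 17.4 and 5.98 TPM, a mean of 11.4 ± 5.75. Eif4e3 had 6.97, 6.90 and 3.46 TPM, from 33, 34 and 13 counts, and shares 373 exonic bases with Gm20696 on its own strand, where a fragment on both would not be counted by default. Eif4e2 was above Eif4e in every library, with a log2 ratio of Eif4e to Eif4e2 of −0.31, −0.93 and −1.19. Eif4e and Eif4e3 showed no order, at 0.10 ± 0.45. Eif4e1b, known as an oocyte form, had 0 counts in all 3 libraries, and 3 counts would have been 0.707, 0.679 and 0.890 TPM.

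The helicase cofactor Eif4b (chromosome 15, 102073773 to 102097172, plus strand) had 156, 220.2 and 87.5 TPM. Its relative Eif4h had 19.8, 37.4 and 8.92 TPM. The log2 ratio of Eif4b to Eif4h was 2.93 ± 0.36, and the ratio of summed counts per base was 6.90 (95% interval 6.36 to 7.50).

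Among the inhibitors of eIF4E, Eif4ebp2 made up nearly all of the family's transcript level. Eif4ebp2 (chromosome 10, 61428491 to 61452661, minus strand) had 35.5, 62.8 and 14.3 TPM, a mean of 37.5 ± 24.3. Eif4ebp1 had 1.94, 2.09 and 0.305 TPM from 8, 9 and 1 counts, and Eif4ebp3 had 0.714, 1.37 and 2.70 TPM from 1, 2 and 3 counts. Eif4ebp2 took 90.2 ± 6.54% of the 3 genes' summed TPM. Per base, its summed counts were 25.8 times those of Eif4ebp1 (95% interval 16.2 to 43.6). Eif4ebp1 and Eif4ebp3 had too few counts to be ordered: their ratio was 1.02 with an interval of 0.387 to 3.13. Eif4ebp3 shares 501 of its 744 exonic bases with Ankhd1 on the same strand, which had 457, 787 and 186 counts, so its level is uncertain. Eif4enif1, which encodes the eIF4E transporter, stood at 19.2 ± 7.26 TPM.

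Transcripts of the inhibitor Eif4ebp2 exceeded those of its target Eif4e in every library. The log2 ratio was 2.01, 2.78 and 2.44, a mean of 2.41 ± 0.39, and the ratio of summed counts per base was 5.54 (95% interval 4.81 to 6.41). These are transcript levels and say nothing of protein amounts.

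**Figure D2:**
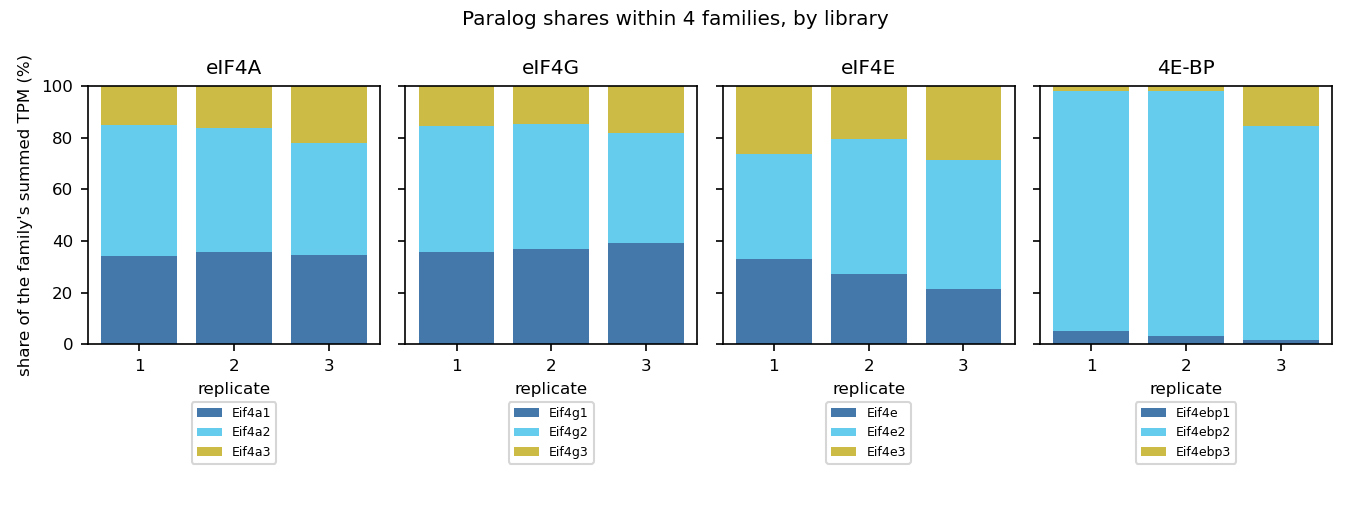
Stacked bars give each paralog's share (%) of its family's summed TPM in each of the 3 libraries, for eIF4A, eIF4G, eIF4E and the eIF4E-binding proteins. Eif4a2 and Eif4g2 are the largest segments of their families in every library, and Eif4ebp2 takes 93.0%, 94.8% and 82.7% of the binding proteins in replicates 1, 2 and 3.

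Of the factors that act at the start codon, Eif1 (chromosome 11, 100319885 to 100322096, plus strand) was the highest, at 100.5, 175 and 42.7 TPM and a mean of 106 ± 66.5. Its paralog Eif1b, an overlap gene, had 32.1, 67.1 and 13.7 TPM, and the log2 ratio of Eif1 to Eif1b was 1.55 ± 0.15. Eif1a, which encodes an eIF1A, stood at 13.7 ± 7.11 TPM, and Eif1ad, which shares the eIF1A domain, at 17.8 ± 9.41.

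The eIF2 subunits on autosomes were alike in level. Eif2s1, the alpha subunit whose phosphorylation marks the integrated stress response, had 22.0, 35.4 and 7.97 TPM. Eif2s2, the beta subunit, had 19.1, 26.7 and 9.41 TPM. Their log2 ratio was 0.12 ± 0.33, positive in 2 libraries and negative in replicate 3, so the libraries gave no single order. The ratio of their summed counts per base was 1.197 (95% interval 1.07 to 1.34), which leaves out the spread between libraries. Eif2b5, the catalytic subunit of eIF2B, had 20.03, 34.7 and 10.6 TPM, and its ratio to Eif2s1 had no constant direction either (summed counts per base 1.01, 95% interval 0.887 to 1.15). The other eIF2B genes were Eif2b2 at 17.4 ± 12.5, Eif2b1 at 13.8 ± 8.28, Eif2b3 at 2.80 ± 2.38 and Eif2b4 at 92.9 ± 14.5 TPM. Eif2b4, an overlap gene, thus took 64.1 ± 17.7% of the summed TPM of a complex whose subunits are assembled together, and the other 4 stood at 21.8 TPM or less.

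Eif2b3, the gamma subunit (chromosome 4, 117019402 to 117087306, plus strand), had 45 and 59 counts in replicates 1 and 2 and 1 count in replicate 3. From the scaled library sizes 17.5 counts would have been expected in replicate 3. It failed the filter on low counts, and without that filter the Poisson chi-square test gave an adjusted p of 0.000217, where 42.6% of 19958 genes were called. No reason for the single count was tested.

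For ribosomal subunit joining, Eif5b (chromosome 1, 37998010 to 38055579, plus strand) had 88.2, 81.6 and 91.3 TPM, a mean of 87.0 ± 4.92. Eif6, which keeps free large subunits apart from small ones, had 20.1, 31.4 and 12.1 TPM. Both are overlap genes.

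Within libraries 14 pairs of related members were compared, and 10 kept 1 direction in all 3. In 8 of these the gene named first was the higher, and the exceptions were Eif4a2 over Eif4a1 and Eif4e2 over Eif4e. Without pairs that hold an overlap gene, 7 of 11 kept 1 direction. The exact two-sided sign-flip test cannot go below p = 0.25 with 3 libraries, and the smallest adjusted p over the 14 pairs was 0.35, so no pair could pass a threshold of 0.05. The pairs with no direction were Eif4e/Eif4e3, Eif4ebp1/Eif4ebp3, Eif2s1/Eif2s2 and Eif2s1/Eif2b5.

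**Figure D3:**
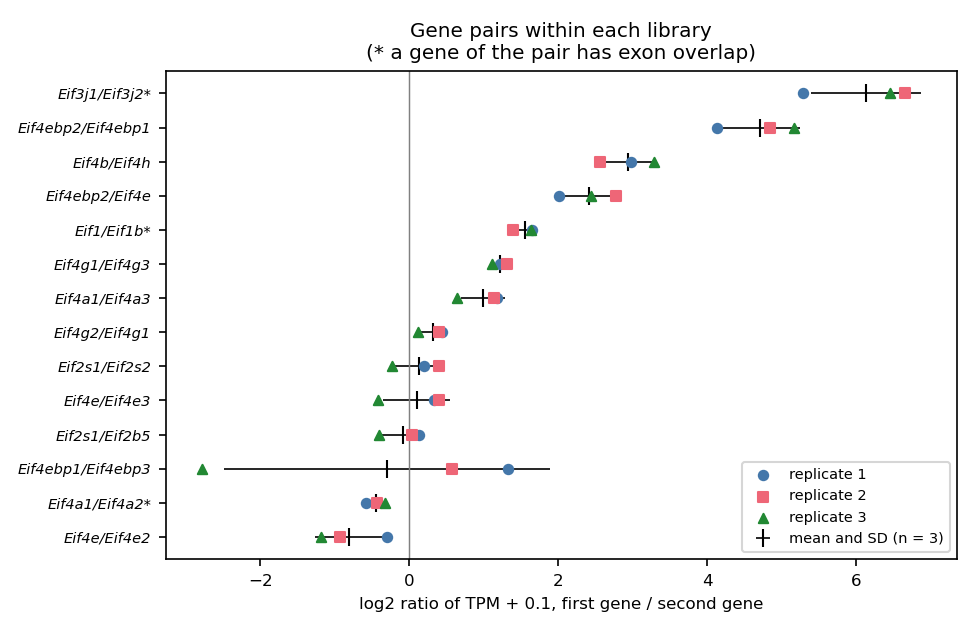
The log2 ratio of TPM + 0.1 between the first and second gene is plotted for 14 pairs, with 1 symbol per library and a bar for the mean and SD (n = 3). The 10 pairs with all symbols on 1 side of 0 run from Eif3j1/Eif3j2 on the right to Eif4e/Eif4e2 on the left.

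The second question was whether the members varied between the libraries by more than counting error. Each gene's counts were tested over the 3 libraries by a Poisson chi-square test against library sizes that edgeR scaled with its TMM method, with Benjamini-Hochberg adjustment over 10662 tested genes. Of 38 tested members, 23 (60.5%) varied at an adjusted p under 0.05, against 62.4% of all tested genes. Of the 30 without exon overlap, 17 (56.7%) varied, against 53.7% of tested genes of that kind, and of the 8 with overlap 6 varied, against 74.7%. These shares lie near their background. Without replicate 3, 15 of 39 tested members (38.5%) varied, against 28.1% of all tested genes in that fit.

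With TMM scaling over all tested genes the direction was largely shared. In 25 of the 38 tested members (65.8%) the scaled count was highest in replicate 2 and lowest in replicate 3, against 35.4% of tested genes. Without overlap genes it was 21 of 30 (70%), against 46.5%, and among those that varied it was 15 of 17 (88.2%), against 54.6%. As a count of all 30, these 15 stand beside 29.3% of tested genes without overlap that both varied and had this order. The number with this order moved with the scaling: of the 30, it was 17 with DESeq2 size factors, 27 with total counts and 8 with TMM over genes without overlap, where the background was 37.7%, 75.85% and 26.4%. The median log2 ratio of replicate 3 to replicate 2 over the 30 was −0.42 (range −1.24 to 0.19), against −0.36 over all tested genes without overlap. The ratio was below 0 in 27 of the 30 and above 0 in 3, where it was above 0 in 30.2% of all tested genes without overlap. With TMM over genes without overlap the median was −0.098, against −0.037, and 18 of the 30 were below 0. The share of all tested genes below 0 was not computed for that scaling, so the 18 have no background beside them.

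Among the clearest cases was Eif3e, with 608, 1045 and 179 counts and a log2 ratio of replicate 3 to 2 of −0.996 (adjusted p = 3.44e-17, Poisson test). Eif4g2 had 1932, 3019 and 671 counts and a ratio of −0.62 (adjusted p = 1.37e-22). Eif2b2, the beta subunit of eIF2B, had 56, 113 and 16 counts and the lowest ratio of the tested members, −1.24 (adjusted p = 0.00215). Eif3a had 1686, 2226 and 790 counts and a ratio of 0.05 (adjusted p = 0.143), and it passed the test with DESeq2 size factors (0.00107), total counts (1.41e-31) and TMM over genes without overlap (5.95e-10). Among all 43, Eif2b3 had the lowest ratio (−3.76) and Eif4ebp3 the highest (2.03), on the few counts given above. The 10 members that varied in all 8 fits tried were Eif5b, Eif2b4, Eif3j1, Eif3m, Eif3e, Eif4a1, Eif4g2, Eif4h, Eif4ebp2 and Eif1. The share of all tested genes that varied in all 8 was not computed, so this number has no background beside it. In single fits 28.1% to 82.5% of all tested genes varied.

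**Figure D4:**
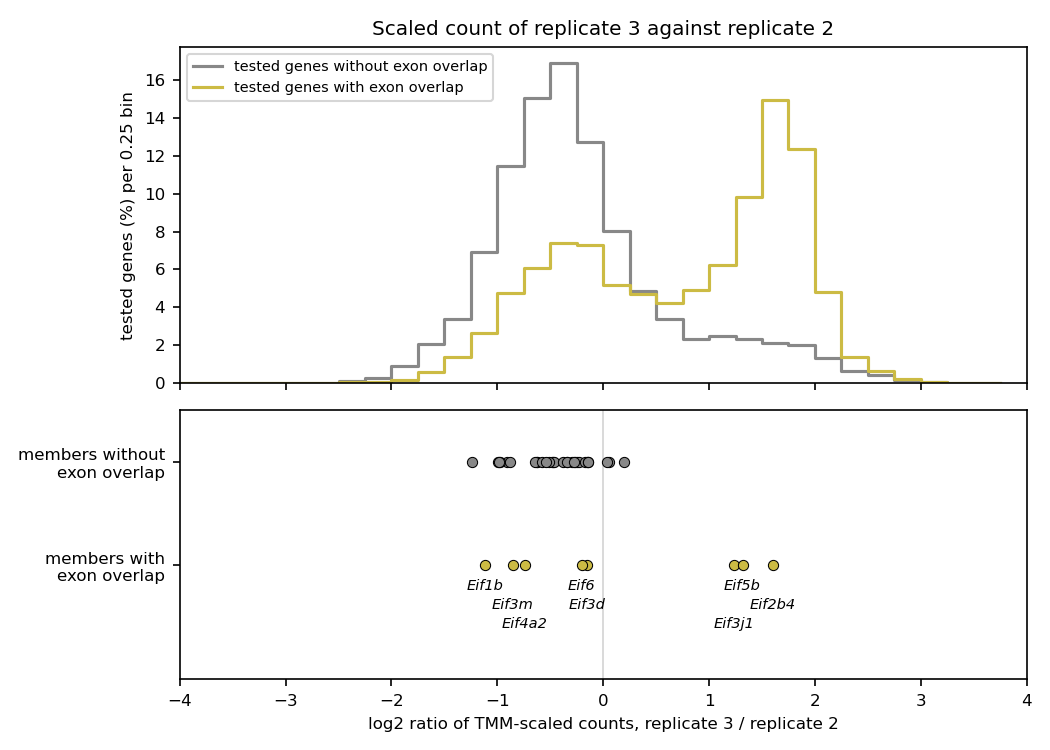
Top, the share of tested genes (%) in bins of the log2 ratio of TMM-scaled counts of replicate 3 to replicate 2, for genes with and without exon overlap. Bottom, each tested member on the same axis: the members without overlap lie between −1.24 and 0.19, and of the 8 with overlap Eif3j1, Eif5b and Eif2b4 lie at 1.23, 1.32 and 1.602.

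Most of the spread in TPM was shared by the members. When each member's log2(TPM + 0.1) was taken relative to the library's median over the 30 tested members without overlap, its SD over the libraries had a median of 0.18, against 0.80 before centring. The same values over all tested genes without overlap, centred on their own medians, were 0.29 and 0.78. The members were not matched to these genes for level, and counting error weighs more on genes with few counts. Whether 0.18 and 0.29 differ beyond that was not tested. Eif4e2 had the smallest SD of the 30, 0.015, and Eif4e the largest, 0.47, and 20 of 30 were below 0.25. The members' levels kept a similar order: across the 43 genes, Spearman's rho was 0.985 between replicates 1 and 2, 0.957 between 1 and 3, and 0.923 between 2 and 3. These are correlations across genes, which share the libraries and the gene lengths.

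**Figure D5:**
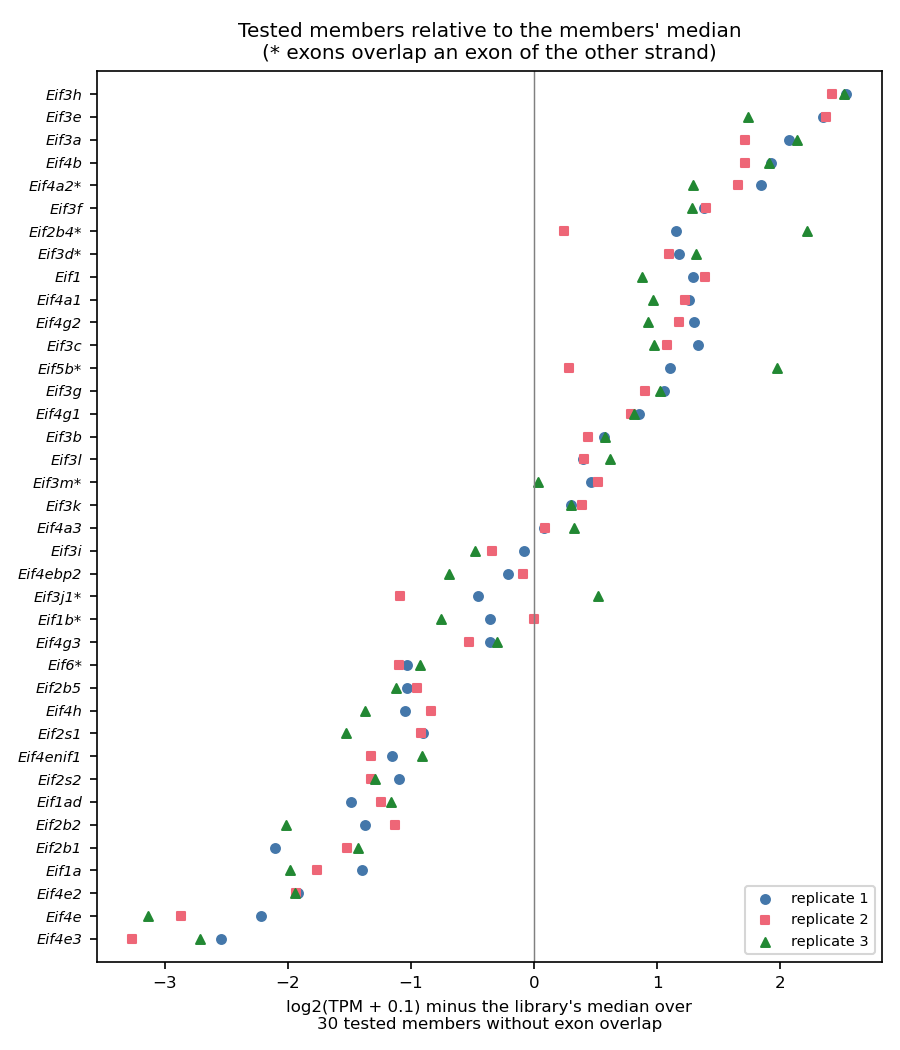
Each tested member's log2(TPM + 0.1) minus the library's median over 30 members without exon overlap is plotted for the 3 libraries. Genes are ordered by the mean of the plotted values, with overlap genes starred. The symbols of most genes lie close together, while those of Eif2b4, Eif5b and Eif3j1 spread over more than 1 unit, with replicate 3 on the right and replicate 2 on the left.

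Replicate 3 was above replicate 2 by more than 1 on the log2 scale in 3 tested members, all overlap genes. Such a ratio is common in that class: its median was 1.02 over all tested genes with overlap. Over the 8 members with overlap the median was −0.18. Eif2b4 had 447, 404 and 420 counts, Eif5b 1620, 1560 and 1330, and Eif3j1 328, 360 and 290, nearly equal in libraries that differ in total counts. Their log2 ratios of replicate 3 to 2 in scaled counts were 1.602, 1.32 and 1.23, with adjusted p of 3.51e-60, 3.09e-136 and 1.75e-27 (Poisson test). They stayed positive under each of the 4 scalings, at 0.83, 0.55 and 0.47 with total counts. Replicate 3 was above replicate 2 in 69.5% of all tested genes with overlap and in 30.2% of those without, and in 3 of 8 and 3 of 30 members. The 3 of 30 were Eif4e3 at 0.19, Eif3a at 0.05 and Eif4enif1 at 0.04.

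The partners on the other strand were themselves counted. Eif5b shares 1643 exonic bases, 16.8% of its length and at its 3′ end (chromosome 1, 38052786 to 38055524), with Rev1, a DNA damage tolerance polymerase gene that had 216, 255 and 155 counts. Eif3j1 shares 1107 bases, 19.0%, also at its 3′ end, with Spg11, which had 280, 374 and 192 counts. Eif2b4 shares 204 bases, 7.85%, at its 5′ end (chromosome 5, 31193227 to 31193430) with Snx17, which had 325, 374 and 251 counts. Eif3d shares the largest part of its length, 32.7%, with the antisense gene Gm17638, which had 4353, 3894 and 5051 counts. Per base, Gm17638 stood 5.73, 3.19 and 13.5 times above Eif3d in replicates 1, 2 and 3, and the log2 ratio of replicate 3 to 2 was −0.15 in Eif3d and 1.92 in Gm17638. The same ratio was 0.83 in Rev1, 0.59 in Spg11 and 0.97 in Snx17, positive as in Eif5b, Eif3j1 and Eif2b4. It was positive as well in 69.5% of all tested genes with overlap. The remaining overlaps were of 82 bases with Ccdc73 in Eif3m, 138 with Gm16098 in Eif6 and 143 with D830035M03Rik in Eif1b. Here signs differed: the ratio was 2.07 in Ccdc73 (445, 292 and 420 counts) but −0.85 in Eif3m. It was 1.55 in D830035M03Rik (11, 9 and 9 counts) but −1.11 in Eif1b. Gm16098 had 1, 0 and 0 counts. Rfc4 and Eif4a2 were both negative, at −0.25 and −0.74. What part these partners have in the members' counts was not tested.

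The start of Eif2b4 is shown because it lies head to head with Snx17. The RefSeq start of Eif2b4 (chromosome 5, position 31193139, minus strand) lies 87 bases from the first exonic base of Snx17, while the counted exon of Eif2b4 reaches into Snx17. The stretch chr5:31193130-31193226 (GRCm38.p6, minus strand, RefSeq) holds those 87 bases and the first 10 of the transcript, and capitals mark the ETS motif CCGGAAG at the start.
Eif2b4: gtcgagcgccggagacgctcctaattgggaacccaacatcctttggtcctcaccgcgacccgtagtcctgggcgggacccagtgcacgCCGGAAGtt

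Promoter sequence from RefSeq (250 bases before to 50 after the start) was matched for 31 of the 43 members by symbol. Messages of the translation machinery often begin with a run of pyrimidines at the cap, the 5′ TOP motif, through which mTOR and LARP1 act. A run of at least 8 C or T letters on the sense strand was sought, touching the window of 20 bases on either side of the start. It was present in 8 of 31 members (25.8%), against 23.4% of expressed protein-coding genes. Here and below each autosomal gene counts once, as a holder if any of its promoters matched. The run covered the start itself in Eif3f, Eif3l and Eif2b5. These are printed with 40 bases before and 20 after the start, capitals marking the run, beside Eif3a, an abundant member with no such run.
Eif3f (chr7:108934375-108934434, plus strand): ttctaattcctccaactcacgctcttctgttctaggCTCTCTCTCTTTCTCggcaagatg
Eif3l (chr15:79075183-79075242, plus strand): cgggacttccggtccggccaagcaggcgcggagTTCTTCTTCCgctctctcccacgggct
Eif2b5 (chr16:20498777-20498836, plus strand): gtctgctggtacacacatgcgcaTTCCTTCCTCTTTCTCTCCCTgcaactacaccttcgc
Eif3a (chr19:60790674-60790733, minus strand): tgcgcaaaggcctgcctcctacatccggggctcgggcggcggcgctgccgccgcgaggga
The runs are 15, 10 and 21 bases long. The 3 genes stood at 113, 59.6 and 21.8 TPM in that order, and Eif3a at 165.

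Short motifs were searched on both strands of the same promoters. The E-box CACGTG was in 8 of 31 members (25.8%), against 12.1% of expressed protein-coding genes and 8.11% of all genes with a promoter. Its holders were Eif1b, Eif3a, Eif3f, Eif3k, Eif4a1, Eif4e, Eif4g1 and Eif4h. The ETS motif CCGGAAG was in 12 (38.7%), against 23.6% and 10.1%. The motif CCAAT was in 10 (32.3%), against 42.2% and 41.0%. The NRF1 core GCATGCG was in 3 (9.68%), against 8.19% of expressed protein-coding genes. The YY1 motif AAGATGG was in 3 as well, against 9.41%. The same number held the TATA box TATAAA, against 7.98%. A match is a description of letters and not of binding.

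Among 33 genes that act beside the initiation factors, all were found, 31 reached 1 TPM in all 3 libraries, and their median mean TPM was 17.1. Of these 33, 17 are overlap genes. The highest were Eif2d, a tRNA delivery factor, at 206 ± 53.5 TPM (overlap), Pdcd4, an eIF4A inhibitor, at 163 ± 62.9 (overlap), and Pabpc1, the poly(A)-binding protein, at 154 ± 80.6. The lowest were Eif5a2 at 1.41 ± 0.88, the eIF2 kinase Eif2ak4 at 3.16 ± 1.90 and the mTORC1 subunit Rptor at 4.24 ± 2.07. Of 32 tested, 21 (65.6%) varied between libraries, near the 62.4% of all tested genes, and 8 did without replicate 3, where 28.1% of all tested genes did.

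The 7 pathway genes that varied with replicate 3 above replicate 2 were Eif2d, Tsc2, Ddit3, Eif2ak1, Rps6kb1, Rps6kb2 and Akt1s1. All 7 are overlap genes, out of 12 overlap genes that varied. The other 14 that varied had replicate 3 below replicate 2: Pabpc1, Eif5, Paip2, Larp1, Abce1, Dhx29, Mtor, Tsc1, Eif2ak3, Eif2ak4, Ppp1r15a, Ppp1r15b, Gigyf2 and Rptor. Of these, Eif2ak3, Ppp1r15a, Ppp1r15b, Gigyf2 and Rptor are overlap genes as well. Larp1, the TOP message binder, had 445, 694 and 132 counts, a log2 ratio of replicate 3 to 2 of −0.84. Eif5, the GTPase activator of eIF2, had 820, 1059 and 233 counts, a ratio of −0.64. Pdcd4, Eif5a and Atf4, the stress response transcription factor, were among the 11 that did not pass the test.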

How the data were processed

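The deposited tables hold raw fragment counts that featureCounts 1.4.6-p4 gave the authors for each gene, on paired, stranded fragments (strand setting 1) over exons of GENCODE M13, per the file headers. The assembly is mm10 and the assay total RNA-seq, per the labels, although the linked library protocol is named for poly(A)+ RNA. The names in the headers refer to STAR; its version, trimming and kit are not given in the sources used here. From these counts and the deposited summed exon lengths TPM were computed here. Summed exon length includes every annotated isoform, so TPM of genes with long rare exons is low. Symbols came from GENCODE M21, which named 50376 of 50600 identifiers. Exon overlap with the other strand was taken from the deposited coordinates with bedtools 2.31.1.

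Counts were scaled with TMM in edgeR 4.0.16 and filtered with filterByExpr, and log2 ratios of scaled counts used an offset of 0.5. A chi-square test under Poisson counts (df = 2, scipy 1.17.1) with Benjamini-Hochberg adjustment was used because 1 group gives edgeR's quasi-likelihood test no contrast. On simulated counts for 10662 genes it called 0.0956% of unchanged genes, 50% at 1.5-fold and 99% at 3-fold. Those counts followed the Poisson model that the test assumes, and most genes were left unchanged. In the data 62.4% of tested genes were called, so these rates need not hold there. Pair ratios used a pseudocount of 0.1. DESeq2 1.42.0 size factors, total counts, TMM over genes without overlap, other filters and leaving out each library were alternatives. Duplicate reads were not marked, and intervals and the floor of 3 counts cover counting error only. Every member is named; each library's value is given for the 10 highest, the 5 lowest, the genes in pairs and the largest and smallest ratios of replicate 3 to 2. The members, pairs, pathway list and overlap classes were chosen with earlier results of these data known. The value of 1 gene of the marker lists is not reported here.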

Additional observations from a re-analysis of the deposited data

How the results depend on the processing

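No paired analysis was possible because the series holds 1 group. Against 23 members varying beyond counting error, 37 (97.4%) did with total counts, where 82.5% of all tested genes did. With no filter 31 of 42 (73.8%) did, against 42.6%. With DESeq2 size factors 22 (57.9%) did, against 58.1%, and with TMM over genes without overlap 17 (44.7%), against 53.65%. Under that last scaling 11 of the 30 members without overlap varied, in place of 17. The count over all tested members was 15 to 20 when 1 library was left out. It was 52.6% of members against 60.8% of all tested genes without replicate 1. It was 42.1% against 49.7% without replicate 2, and 38.5% against 28.1% without replicate 3. The pathway count of 21 became 8 to 17 when 1 library was left out, with 8 without replicate 3. The median member level, 4.99 on the log2 scale of TPM, was 5.96 as TMM-scaled CPM, another unit. The median member shift in replicate 3 was −0.18, −0.60 with total counts and −0.0047 with TMM over genes without overlap. All tested genes, more of which have overlap, shifted by −0.037, −0.45 and 0.14. With TMM over all tested genes and overlap genes left out, the shift was −0.205 in members and −0.187 in all tested genes. In replicate 2 the median member shift was 0.17, 0.51 with total counts and 0.029 with TMM over genes without overlap. All tested genes shifted there by 0.063, 0.40 and −0.076. With overlap genes left out, the first scaling gave 0.176 in members and 0.171 in all tested genes. The median level of the eIF4E-binding protein group, 2.39, lay between 2.26 and 2.78 when 1 library was left out. With no length correction the mean ratios of Eif2s1/Eif2s2, Eif2s1/Eif2b5 and Eif4ebp1/Eif4ebp3 changed sign, to −0.33, 0.54 and 1.03; they had no constant direction to begin with. At 2510319 to 4305077 assigned counts per library, differences between libraries in genes such as Eif4ebp3 and Eif3j2 were not detectable.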

Other observations

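The 7 Eif pseudogenes among the counted features held 33 counts in all, of which 25 were in Eif4a-ps4. Eif4a1, Eif4a2 and Eif4g2 share exonic bases with small nucleolar RNA genes on the same strand. Among these, Gm24616, which shares only 10 bases with Eif4a2, had 5, 11 and 0 counts, and the others had 0 in every library.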
